A study of Homo sapiens with 6 samples.

Results

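The SR splicing factors examined here are 10 genes, SRSF1 to SRSF7, SRSF9, SRSF10 and SRSF11, chosen by gene symbol among 58233 genes. They carry 107 of the 199234 transcripts listed, and 102 of these were detected in 1 or more of the libraries. The RNA came from Huh7, an established line of human liver cancer cells. For 3 libraries the cells had received a plasmid that overexpresses TP53TG1, a long noncoding RNA gene, and in the other 3 an empty control plasmid. The cell line and the transfection are common to all 6 libraries, and nothing in the labels says that replicates came from separate cultures. The p-values therefore measure the spread between these libraries, which may be technical.

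SR proteins bind exons through RNA recognition motifs and recruit the early spliceosome through a tail rich in arginine and serine. They also act after splicing, in export, stability and translation of mRNA. Most SR genes hold their own output in check: SR protein favours an alternative form of its own transcript that is retained in the nucleus or carries a premature stop codon and is removed by nonsense-mediated decay. The level of an SR gene and the shares of its transcripts are thus different readouts, and both are given here. FPKM, an abundance corrected for transcript length and sequencing depth, was divided by a factor for each library that makes the median gene comparable between libraries. The result is called scaled FPKM. A share is a transcript's part of its gene's FPKM and does not depend on that factor.

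The alternative forms are defined by where their reading frame ends. All 22 transcripts of these genes that are annotated as nonsense-mediated decay have a stop codon more than 50 bases before their last exon junction, the usual mark of a decay target. That count describes the annotation, and decay itself was not measured. In 11 of the 22 the stop codon lies in an exon that shares no base with the gene's most abundant coding transcript. The last 30 bases of the reading frame are shown for the most abundant decay transcript of the 4 genes with the largest decay shares, and for the 2 leading SRSF1 transcripts, whose frames end at different stops. Each runs 5′ to 3′ on the coding strand, from GENCODE 29 (GRCh38), with the stop codon in capitals.
SRSF1-201: cgtcatagcagatctcgctctcgtacaTAA
SRSF1-205: tttgaccagaattggatacagtggtctTAA
SRSF2-208: cctgaagaggaaggagcggtgtcctctTAA
SRSF3-203: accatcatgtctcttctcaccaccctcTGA
SRSF6-202: gccatgacgacagcagccttttgccatTAG
SRSF7-208: cggcgaagaagaagcaggtatttatttTAA

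The SRSF3-203 stop lies in a cassette exon of 456 bases (chromosome 6, 36599821 to 36600276) that the coding transcript SRSF3-208 skips. The SRSF6-202 stop lies in a cassette exon of 268 bases (chromosome 20, 43459153 to 43459420) that SRSF6-201 skips. In SRSF7-208 the stop is in an exon of 1127 bases (chromosome 2, 38748579 to 38749705), of which 252 bases also occur in the coding transcript SRSF7-202. SRSF2-208 differs from these, since its reading frame of 221 codons ends at the same stop as the coding transcript SRSF2-202 (chromosome 17, 76736161 to 76736163). In SRSF2-208 a further junction follows downstream, 105 bases after the stop, against 7 bases in SRSF2-202. SRSF1-205 keeps an intron of 200 bases (chromosome 17, 58005601 to 58005800) that SRSF1-201 removes. Its frame then ends after 201 codons, inside the kept intron, where SRSF1-201 encodes 248.

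The libraries were checked before the members were compared. TP53TG1 itself was at 9.52, 4.42 and 5.20 scaled FPKM in controls 1 to 3 and at 116, 122 and 70.0 in the overexpressing libraries, higher in each as labelled (log2 fold change 3.83, SE 0.341, limma with Benjamini-Hochberg adjusted p = 0.0465). Among hepatocyte markers, 7 of 10 reached a mean of 1 FPKM; their summed level was 53.0 to 65.7 scaled FPKM in controls and 44.4 to 62.5 with TP53TG1. TTR was listed at 0 in 4 libraries, and ALB lay between 0.448 and 1.11 scaled FPKM. Intestinal epithelial markers summed to 152 to 312 in controls and 110.0 to 153 scaled FPKM with TP53TG1, with 5 of 6 at a mean of 1 FPKM or more, and were lower with TP53TG1 within each replicate number. The groups did not overlap for 2 of the 5 tested, CDH17, a cadherin of the gut (log2 fold change -0.71), and VIL1, a protein of microvilli (-0.83). Over all genes they did not overlap for 4.05%. The unadjusted p of CDH17 and VIL1 by limma were 0.0233 and 0.0284, and their adjusted p 1.00. An unadjusted p under 0.05 was found for 1.17% of all genes. Of the 5, 4 lay below 0 and CDX2 above, at 0.05. Both libraries numbered 1 stood apart in make-up. The mean transcript length of protein-coding genes, weighted by FPKM, was 1290.1 and 1212 nt in them against 1594 to 1644 nt in the other 4. Mitochondrial genes held 15.1% and 14.3% of FPKM there, against 10.7% to 11.9%. The 5 listed small structured RNAs summed to 4425, 1243 and 855 scaled FPKM in the controls and to 32843, 2941 and 3961 with TP53TG1, so they were higher with TP53TG1 within each replicate number as well as highest in number 1 of each group. None was called without the replicate block, and with it RMRP (limma adjusted p = 0.00393) and RPPH1 (0.00301), RNA parts of ribonucleases, were called. A second entry of RMRP, above 0 only in TP53TG1 replicate 1 (99.9 scaled FPKM), was not called with the block (limma adjusted p = 0.890). The part of these differences in the results on SR genes was not tested.

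All 10 SR genes were well expressed, and none changed with the TP53TG1 plasmid by the test. By mean level over the 6 libraries they lay between percentile 74.9 (SRSF4) and percentile 95.1 (SRSF2) of the 12853 genes tested. With limma and Benjamini-Hochberg adjustment over all genes, 0 of 10 passed the threshold of 0.05, where 0.0156% of all genes did, and 0 had an unadjusted p under 0.05. The groups overlapped for every one of the 10, whereas they did not overlap for 4.05% of all genes. Fold changes on the log2(scaled FPKM + 1) scale ran from -0.25 for SRSF11 to 0.11 for SRSF2, with standard errors of 0.213 to 0.579. Of the 10, 4 lay above and 6 below 0 with this scaling, with a median of -0.06 beside 0.00 for all genes, and all 10 lay below 0 without scaling or with equal totals. Without scaling the medians were -0.45 for the SR genes and -0.35 for all genes, and with equal totals -0.20 and -0.12. Exact two-sided permutation tests gave p from 0.500 to 1.00, where 0.1 is the smallest that 3 against 3 libraries allow.

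**Figure D1:**
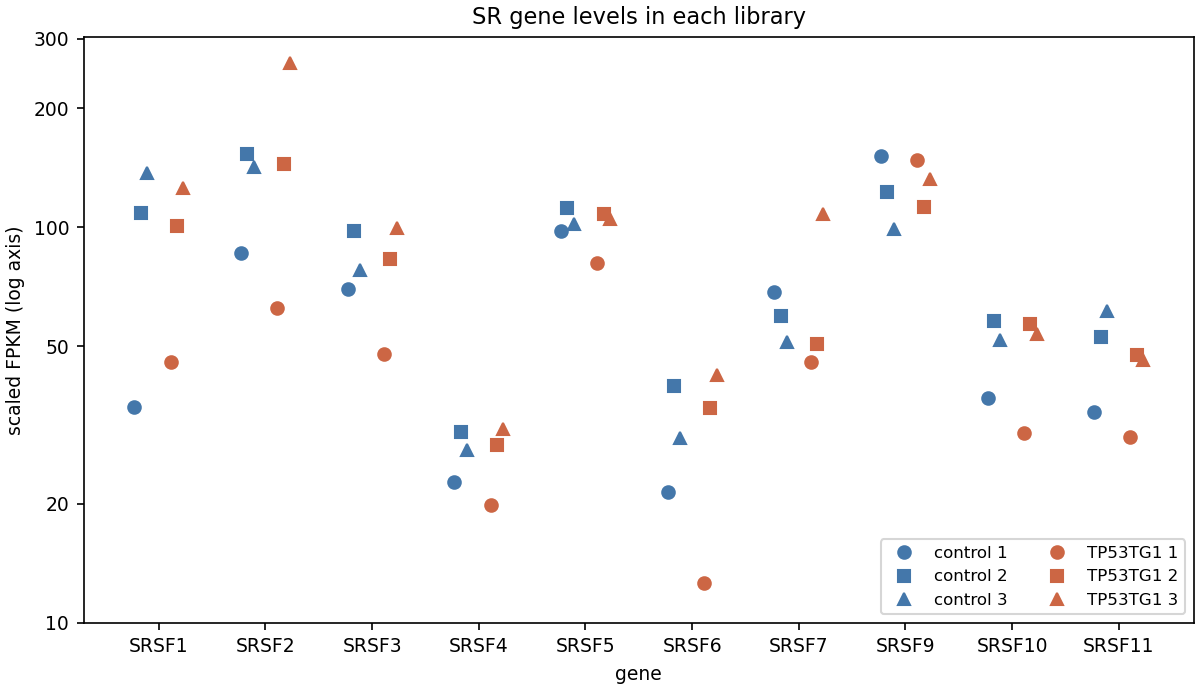
Scaled FPKM (log axis) of the 10 SR genes, with 1 point per library; blue is control, orange TP53TG1, and the marker shape gives the replicate number. In 8 of the 10 genes the 2 lowest points are the circles, the libraries numbered 1, and the colours overlap in each gene.

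SRSF1, the founding SR protein, which promotes recognition of 5′ splice sites and moves between nucleus and cytoplasm, is on chromosome 17 (58003360 to 58007346, minus strand). Controls 1 to 3 had 35.2, 109 and 137 scaled FPKM, and TP53TG1 replicates 1 to 3 had 45.6, 101 and 126. Both libraries numbered 1 were low and the other 4 lay together, so that its spread within a group, 93.8 ± 52.7 and 90.9 ± 41.2 (SD, n = 3 each), was far larger than the difference between the groups. SRSF2, also known as SC35 and a marker of nuclear speckles, is on the same chromosome (76734115 to 76737374, minus strand). Its values were 86.4, 153 and 142 scaled FPKM in the controls and 62.7, 145 and 261 with TP53TG1. TP53TG1 replicate 3 was the highest library, and the mean of 156 ± 99.4 against 127 ± 35.5 (SD, n = 3 each) rests on it.

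SRSF3 and SRSF7, small SR proteins that serve as adaptors for mRNA export, share a single RNA recognition motif. SRSF3 (chromosome 6, 36594353 to 36605600, plus strand) stood at 70.0, 98.2 and 78.2 scaled FPKM in the controls and 47.8, 83.0 and 99.5 with TP53TG1. SRSF7, which adds a zinc knuckle (chromosome 2, 38743599 to 38751494, minus strand), stood at 68.8, 59.7 and 51.3 in the controls and 45.7, 50.7 and 108 with TP53TG1. The highest SRSF7 value was again in TP53TG1 replicate 3, and the lowest in TP53TG1 replicate 1. In the control group SRSF7 had its highest value in replicate 1, unlike SRSF3.

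SRSF4, SRSF5 and SRSF6 form a subgroup with a second, degenerate RNA recognition motif. SRSF4 (chromosome 1, 29147743 to 29181987, minus strand) had the lowest control mean of the 10, 26.8 scaled FPKM, at 22.7, 30.3 and 27.3 in the controls and 19.9, 28.2 and 30.9 with TP53TG1. SRSF5 (chromosome 14, 69726900 to 69772005, plus strand) had the smallest standard error of the 10 fold changes, 0.213, at 98.1, 112 and 102 in the controls and 81.3, 108 and 105 with TP53TG1. SRSF6 (chromosome 20, 43457928 to 43464247, plus strand) stood at 21.4, 39.8 and 29.4 in the controls and 12.6, 34.9 and 42.4 with TP53TG1. In each of the 3 genes the library numbered 1 was the lowest of its group.

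SRSF9, an SR protein with a short arginine-serine tail (chromosome 12, 120461668 to 120469793, minus strand), behaved unlike the others. It stood at 152, 123 and 99.4 scaled FPKM in the controls and 148, 113 and 133 with TP53TG1, highest in both libraries numbered 1. SRSF10, which can repress splicing when dephosphorylated (chromosome 1, 23964804 to 23980927, minus strand), stood at 37.0, 58.0 and 52.0 in the controls and 30.2, 57.0 and 53.9 with TP53TG1. SRSF11, an SR-related protein of the early spliceosome (chromosome 1, 70205682 to 70253052, plus strand), stood at 34.2, 52.8 and 61.6 in the controls and 29.5, 47.6 and 46.1 with TP53TG1. It gave the smallest p of the 10 by limma, an unadjusted 0.431 (adjusted 1.00), at a fold change of -0.25 (SE 0.305), which was -0.04 without TP53TG1 replicate 1, -0.08 without control 3 and -0.49 without control 1. Ranked by control mean, SRSF2, SRSF9, SRSF5, SRSF1 and SRSF3 lay between 127 and 82.1, and SRSF7, SRSF11, SRSF10, SRSF6 and SRSF4 between 59.9 and 26.8. Every pair of neighbours in that order differed by less than the larger of their SDs, apart from SRSF3 and SRSF7 and from SRSF10 and SRSF6.

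**Figure D2:**
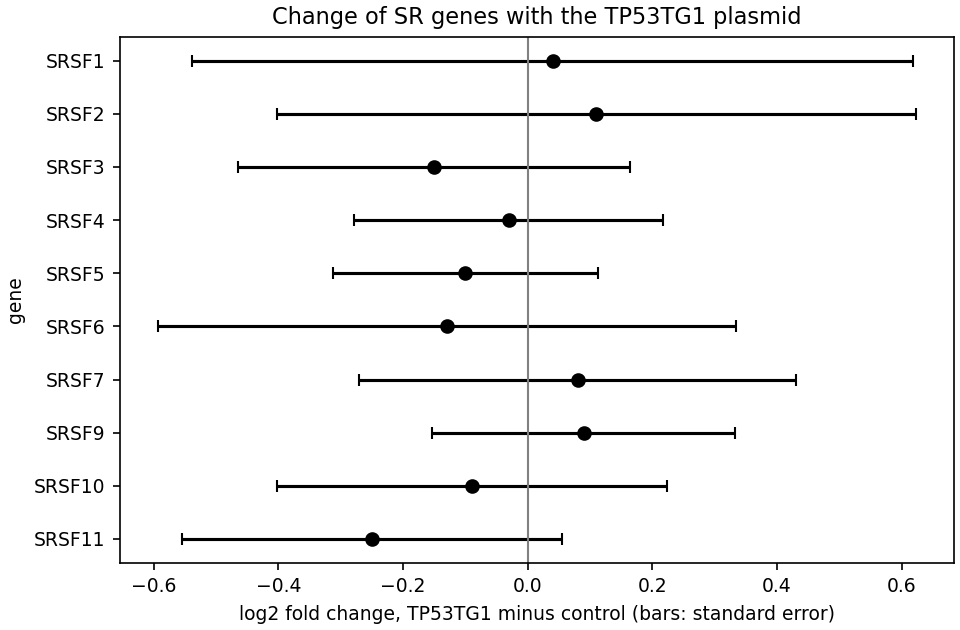
Log2 fold change of each SR gene, TP53TG1 minus control, on the log2(scaled FPKM + 1) scale, with bars of 1 standard error. The values lie between -0.25 and 0.11, and the bars of all 10 genes cross 0.

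The libraries are numbered 1 to 3 in both groups, and the 2 libraries numbered 1 deviated together across genes (r = 0.721). Numbers 2 and 3 were not clearly paired, at 0.576 and 0.312 for like numbers and 0.330 and 0.424 for unlike ones. The ratios within a number are given as a description. Within number 1 the SR genes were lower with TP53TG1 in 9 of 10 cases, and SRSF1 alone was higher, at a ratio of 1.30. Within number 2 all 10 were lower, at ratios from 0.845 (SRSF3) to 0.982 (SRSF10). Within number 3, 8 of 10 were higher, with the largest ratios for SRSF7 (2.10) and SRSF2 (1.84). Of all tested genes, 49.9%, 52.3% and 50.1% were lower with TP53TG1 within numbers 1, 2 and 3. The sign of the difference thus turned between pairs for 9 of the 10 genes, SRSF11 being lower in all 3 (0.862, 0.902 and 0.749).

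The largest differences in SR gene level were between libraries of the same group. Relative to the mean of replicates 2 and 3, replicate 1 had a median ratio of 0.729 over the 10 genes in the controls and 0.562 with TP53TG1, where the medians of all tested genes were 0.995 and 0.988. The ratio was below 1 for 8 and 9 of the 10 genes, and for 50.3% and 50.4% of all genes. SRSF1 had the lowest ratio in the controls, 0.286, at percentile 4.31 of all genes. With TP53TG1 the lowest were SRSF2 at 0.309 (percentile 7.44) and SRSF6 at 0.327 (percentile 8.24). SRSF9 lay above 1 in both groups, at 1.36 and 1.20, and SRSF7 in the controls, at 1.24. The summed level of the 10 genes was 625, 835 and 781 scaled FPKM in controls 1 to 3 and 523, 768 and 1005 with TP53TG1. As these are bulk libraries, fewer cells that express a gene and less RNA per cell cannot be told apart.

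**Figure D3:**
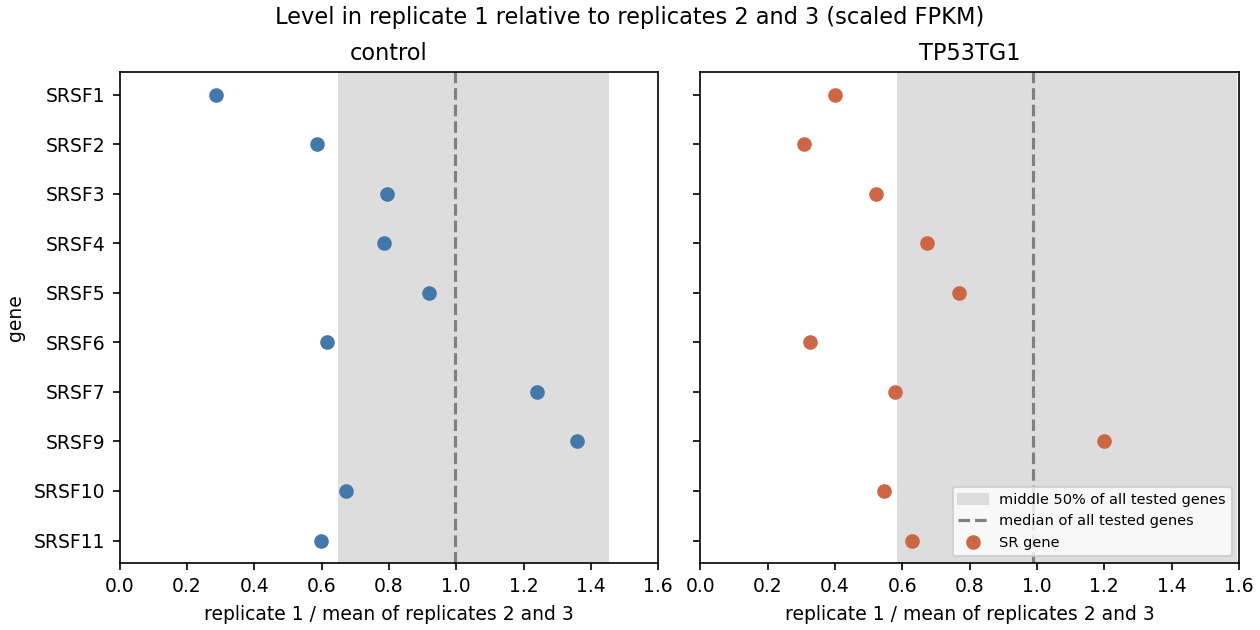
Scaled FPKM in replicate 1 divided by the mean of replicates 2 and 3, for each SR gene in the control (left) and TP53TG1 (right) libraries. The grey band holds the middle 50% of all tested genes and the dashed line their median, 0.995 and 0.988; 8 SR genes on the left and 9 on the right lie below 1.

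Transcripts annotated as decay targets made up a large part of some SR genes in every library and were nearly missing from others. SRSF6 held the largest such share. SRSF6-202, with the cassette exon shown above, took 42.4%, 55.0% and 69.9% of the gene in controls 1 to 3 and 31.0%, 51.6% and 52.6% with TP53TG1. In SRSF7 the 6 decay transcripts together held 28.4%, 29.7% and 31.0% in the controls and 25.9%, 31.3% and 17.6% with TP53TG1. Decay transcripts of SRSF2 held 19.5%, 8.67% and 18.1% in the controls and 24.3%, 13.2% and 8.59% with TP53TG1. Those of SRSF3 held 9.17%, 11.2% and 9.24% against 11.8%, 9.46% and 4.64%. Averaged over the 6 libraries, these shares of 50.4%, 27.3%, 15.4% and 9.26% lay at percentiles 97.3, 90.3, 81.6 and 72.7 among genes with such a transcript, whose median was 2.59%. SRSF1 and SRSF9 lay below that median, at 0.722% and 0.0148%, as did SRSF10 and SRSF11, at 2.13% and 2.23%. StringTie, the quantifier, divides fragments that fit several transcripts by a model, so these shares are estimates and their counting error is not known.

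No decay share passed the test between the groups. Of 8 SR genes tested, 0 passed with limma and Benjamini-Hochberg adjustment, as did 0% of the 2548 genes with such a share, and 0 of 8 had an unadjusted p under 0.05, against 2.35% of all. The share was lower with TP53TG1 in 7 of the 8, with a median difference of -1.73 percentage points beside -0.0616 over all genes. The 2 medians are not on a like footing, since several SR genes have decay shares far above the median of 2.59%. How many of all genes were lower was not counted. SRSF6 differed most, by -10.8 points (55.8 ± 13.8% against 45.0 ± 12.2%, SD, n = 3 each), and by -3.69 without control 3, -3.72 without TP53TG1 replicate 1 and -17.5 without control 1. The differences were -4.76 points for SRSF7, -3.58 for SRSF4, -2.21 for SRSF11, -1.24 for SRSF3, -0.186 for SRSF10 and -0.0523 for SRSF2, and the groups overlapped in all of these. SRSF7 was at -1.09 without TP53TG1 replicate 3 and -7.95 without replicate 2. SRSF4 ran from -6.87 without control 1 to -1.88 without control 3, also at -1.89 without TP53TG1 replicate 1 and -2.00 without control 2. SRSF11 was at -1.34 without control 3. SRSF5 was the exception in sign. Its single decay transcript, SRSF5-211, held 2.38%, 1.17% and 2.13% in the controls and 9.39%, 2.64% and 5.26% with TP53TG1, a difference of 3.87 points, or 2.06 without TP53TG1 replicate 1. Its groups did not overlap, as was so for 5.81% of all genes with a decay share, and limma gave an unadjusted p of 0.0995 and an adjusted p of 1.00.

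**Figure D4:**
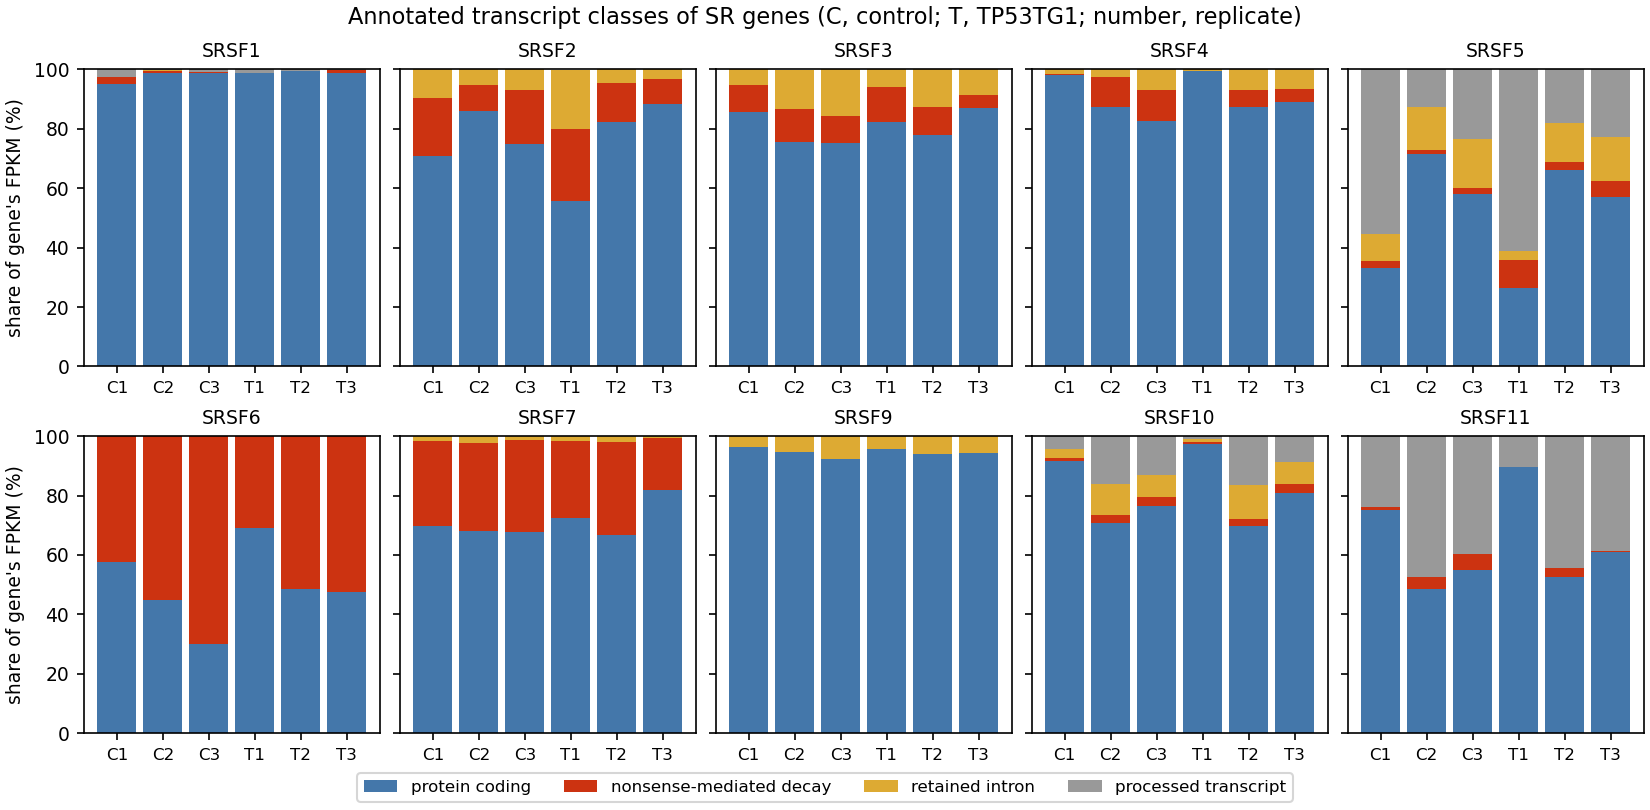
Share of each SR gene's FPKM (%) in transcripts annotated as protein coding, nonsense-mediated decay, retained intron or processed transcript, with 1 bar per library (C, control; T, TP53TG1; the number is the replicate). Decay transcripts are the widest red bands in SRSF6 and SRSF7, and processed transcripts fill 55.5% and 61.3% of SRSF5 in the libraries numbered 1.

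Only transcripts annotated as retained intron are counted here. SRSF1-205, which keeps an intron but is annotated as protein coding, is left out, although it held 43.6% to 98.7% of SRSF1. Retained intron transcripts held more than decay transcripts in SRSF3, SRSF5, SRSF9 and SRSF10 by the mean over the 6 libraries, and less in SRSF1, SRSF2, SRSF4 and SRSF7. Their mean share was highest in SRSF5, at 13.2 ± 3.90% in the controls and 10.3 ± 6.51% with TP53TG1, and in SRSF3, at 11.4 ± 5.37% and 9.11 ± 3.40% (SD, n = 3 each). In SRSF2 they held 7.33 ± 2.16% in the controls and 9.30 ± 9.32% with TP53TG1 (SD, n = 3 each), highest in TP53TG1 replicate 1. Of 7 SR genes tested 0 passed (limma, adjusted p = 0.999 for each), like 0% of the 4148 genes tested, and 0 of 7 had an unadjusted p under 0.05, against 1.69% of all. SRSF2 had the largest difference upwards, 1.98 points, and SRSF5 the largest downwards. No SR gene had groups that did not overlap, against 4.94% of all genes.

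Single transcripts gave the same count. Of 38 SR transcripts tested, 0 passed with limma and Benjamini-Hochberg adjustment over 23737 transcripts, of which 0% passed. An unadjusted p under 0.05 was found for 0 of the 38 and for 1.42% of all transcripts. Group means of the 38 differed by a median of 2.47 points, beside 3.41 points for all transcripts, and by at most 10.8. Groups did not overlap for 2 of the 38, SRSF7-201 and SRSF3-202, a share close to the 5.24% of all transcripts. SRSF7-201 is the coding transcript of 2489 nt, with the longer last exon (1589 bases, against 295 in SRSF7-202). It held 14.7%, 13.7% and 11.2% in the controls and 21.1%, 18.9% and 18.3% with TP53TG1, a difference of 6.21 points (limma unadjusted p = 0.129, adjusted p = 1.00). SRSF3-202, also with a long last exon (3639 bases, against 236 in SRSF3-208), held 8.98% to 12.5% in the controls (mean 10.8 ± 1.75%) and 12.7% to 15.0% with TP53TG1 (mean 13.6 ± 1.24%, SD, n = 3 each; limma unadjusted p = 0.410, adjusted p = 1.00). As their groups did not overlap, the exact two-sided permutation test could give only its smallest value, 0.1, for both, and it adds nothing to that.

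The transcript make-up of SR genes differed more between the libraries numbered 1 and the other 4 than between the groups, where the median difference was 2.47 points. Numbers 2 and 3 were not compared with each other. For 26 of the 38 SR transcripts (68.4%) both libraries numbered 1 lay on one side of the other 4, as they did for 51.5% of all transcripts. The size of the shift was not larger, with a median of 7.61 points between number 1 and the others for SR transcripts and 8.86 for all. SRSF1 showed this most. SRSF1-201, the 4-exon form, was listed at 0 in control 1 and TP53TG1 replicate 1, and held 51.7% and 53.8% in controls 2 and 3 and 49.4% and 48.4% in TP53TG1 replicates 2 and 3. SRSF1-205, the form that keeps the last intron, made up 94.9% (control) and 98.7% (TP53TG1) of the gene in number 1, and 43.6% to 48.8% elsewhere. The forms share most of their sequence, so a library listed at 0 for SRSF1-201 need not lack it.

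Some, but not all, short transcripts at an end of SRSF2 or SRSF5 also set the libraries numbered 1 apart from the other 4. SRSF2-201, of 572 nt at the 5′ end of SRSF2 (chromosome 17, 76736405 to 76737331) and without an annotated stop codon, held 7.28% in control 1 and was listed at 0 in TP53TG1 replicate 1. In the other 4 libraries it held 37.0% to 44.1%. SRSF2-202, the full-length coding transcript, reached 50.8% and 52.5% in number 1, above the range of 26.4% to 43.9% in numbers 2 and 3. SRSF5-216, a noncoding transcript of 644 nt at the 3′ end of SRSF5 (chromosome 14, 69770448 to 69772005), reached 53.2% and 59.2% in number 1, above the range of 11.2% to 22.9% in numbers 2 and 3. SRSF5-204, of 526 nt at the 5′ end of the same gene (69767112 to 69769189), held 4.29% and 2.82% against 10.7% to 22.3%. The coding transcript SRSF5-217 did not set the libraries numbered 1 apart, at 22.8% and 22.4% against 15.6% to 38.9%.

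**Figure D5:**
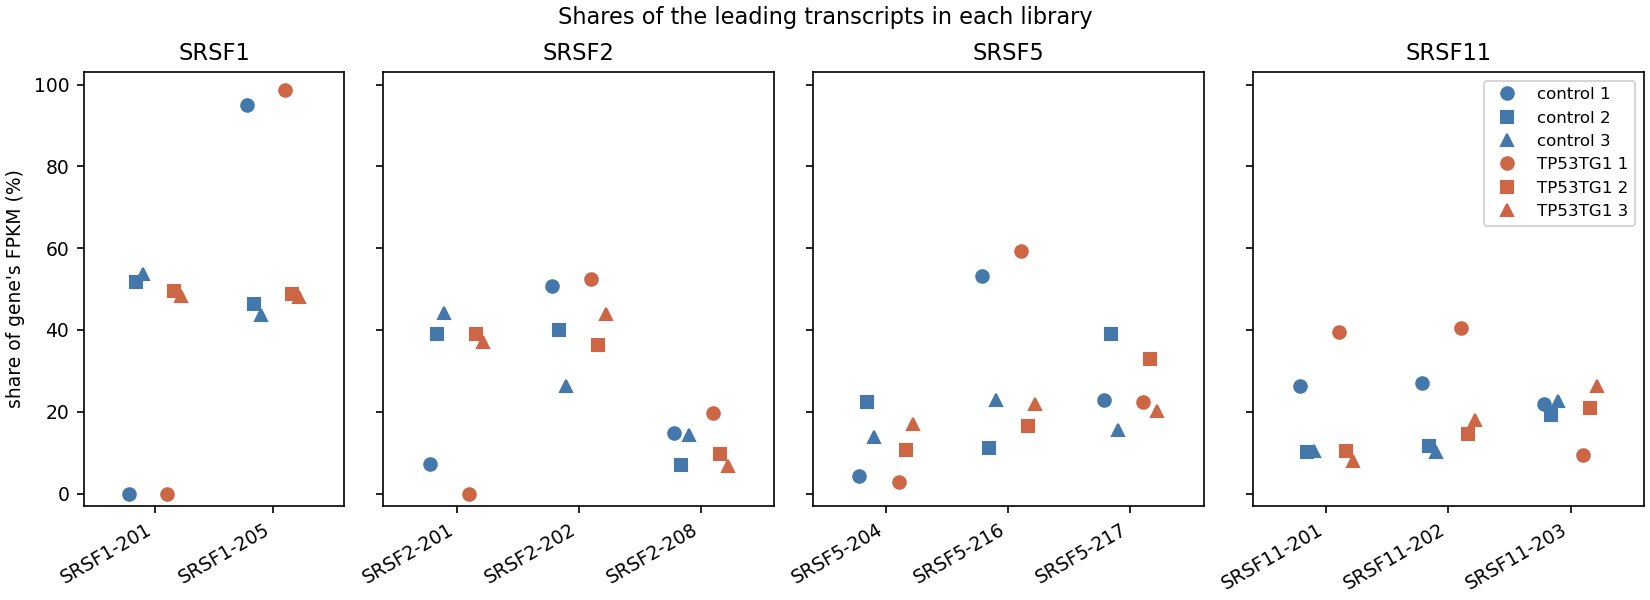
Share (%) of the leading transcripts of SRSF1, SRSF2, SRSF5 and SRSF11 in each library; blue is control, orange TP53TG1, and the marker shape gives the replicate number. The circles (libraries numbered 1) stand apart for SRSF1-201, SRSF1-205, SRSF2-201, SRSF5-216, SRSF11-201 and SRSF11-202, while blue and orange points of the same shape lie close together in SRSF1.

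In SRSF11, the coding transcript SRSF11-201 held 26.2% (control) and 39.4% (TP53TG1) in number 1, well over the 7.84% to 10.5% of numbers 2 and 3. SRSF11-202, a coding transcript of 3784 nt, averaged 33.8% in number 1 and 13.6% in numbers 2 and 3. Noncoding processed transcripts of SRSF11 went the other way, with 23.8% and 10.5% in number 1 and 38.6% to 47.6% elsewhere. SRSF11-203, also coding and with the highest control mean of the gene's transcripts (21.2%), did not set number 1 apart. It held 21.8% in control 1 and 9.53% in TP53TG1 replicate 1, against 19.1% to 26.3% in numbers 2 and 3. SRSF4 was nearly a single transcript, SRSF4-201, with 95.2% and 98.5% in number 1 and 78.1% to 81.9% elsewhere. SRSF9-201 was close to its whole gene in each library, at 92.4% to 96.0%. The mean transcript length of all 10 genes, weighted by FPKM, was 1633 and 1714 nt in number 1 and 1623 to 1681 nt elsewhere, although that of all protein-coding genes was shorter in number 1.

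SRSF10 encodes a long and a short protein by a choice between last exons. Transcripts that end at the stop of the long form (chromosome 1, 23971142 to 23971144, 261 or 262 codons) held 31.5 ± 2.06% in the controls and 32.3 ± 3.30% with TP53TG1 (SD, n = 3 each). Those that end at the main stop of the short form (23967663 to 23967665, 165 to 183 codons) held 55.1%, 33.5% and 37.5% in the controls and 59.0%, 31.0% and 42.1% with TP53TG1. The share of the long form varied little over the 6 libraries, from 28.7% to 35.0%, and that of the short form was highest in both libraries numbered 1. Exact two-sided permutation tests gave p = 0.700 and 0.800 for the differences between the groups, where 0.1 is the smallest possible. SRSF10-207, a transcript of the short form, held 34.7% and 39.0% in number 1 and 12.5% to 16.2% in the other 4 libraries. SRSF10-204 and SRSF10-211, also of the short form, did not set number 1 apart. They averaged 10.3% and 9.92% there, against 9.08% and 12.6% in numbers 2 and 3. The long-form transcripts SRSF10-203 and SRSF10-214 set number 1 apart in opposite directions. SRSF10-203 averaged 24.5% in number 1 and 16.9% elsewhere, and SRSF10-214 averaged 7.64% and 15.0%.

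Genes that act with SR proteins were not called either. Of 11 tested kinase and phosphatase genes, which add and remove the phosphates of the arginine-serine tail, 0 were higher and 0 lower by limma, with a median log2 fold change of 0.03. Their smallest p was that of PPP1CB, a catalytic subunit of protein phosphatase 1, at 39.2 ± 5.69 scaled FPKM in the controls and 30.2 ± 8.69 with TP53TG1 (SD, n = 3 each). Among 23 SR-like and SR-related genes 0 were called, with a median of 0.00, and among 10 early spliceosome genes 0, with a median of 0.09. The smallest p of these 2 lists were those of SCAF1, an SR-related factor that binds RNA polymerase II (log2 fold change 0.25), and ZRSR2, which acts at the 3′ splice site of minor introns (0.37). By limma these were unadjusted 0.359 and 0.248, and 1.00 after adjustment. Of 18 hnRNP genes, whose products often oppose SR proteins, 0 were called, with a median of 0.00. HNRNPH3 had the smallest p of them, 0.324, at a fold change of -0.36. Of 14 genes of the nonsense-mediated decay machinery 0 were called, with 10 below 0 and a median of -0.18. SMG9, a regulator of the SMG1 kinase in that pathway, stood at 39.8, 43.2 and 53.7 in the controls and 39.0, 37.2 and 42.7 with TP53TG1. In these 5 lists together, 0 genes had an unadjusted p under 0.05 by limma, where 1.17% of all genes did.

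The lower level in libraries numbered 1 was shared by several of these lists. The median ratio of replicate 1 to the mean of replicates 2 and 3 was 0.746 in the controls and 0.658 with TP53TG1 for hnRNP genes, and 0.702 and 0.647 for SR-like and SR-related genes. It was 1.16 and 0.892 for early spliceosome genes. Over the 6 libraries, 9 of the 10 SR genes correlated positively with the mean profile of the others, from r = 0.501 for SRSF7 to 0.990 for SRSF6, and SRSF9 negatively, at -0.589. Among 6470 other genes that averaged 10 FPKM or more, the 5 with the profile most like the mean of the SR genes were HNRNPUL1 (r = 0.998), NPEPPS (0.997), COX10 (0.996), CPNE3 (0.996) and STARD7 (0.995). HNRNPUL1, an RNA-binding protein of the hnRNP U family, stood at 93.2, 129 and 114 in the controls and 70.5, 114 and 136 with TP53TG1, lowest in both libraries numbered 1. These correlations describe 6 libraries that share scaling and make-up, and were picked as the highest of many.

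Other genes overlap some of these loci. Exons of MFSD11 on the opposite strand overlap SRSF2 and those of GATC overlap SRSF9, at 5.91 to 7.89 and 17.6 to 23.7 scaled FPKM, well below the SR genes. Whether the counting used strand is not given in the sources used here, so fragments of such partners may not be separable. Pseudogenes named for SRSF1 and SRSF9 were listed at 0 and at no more than 0.550 FPKM.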

How the data were processed

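Each library's file, as the authors deposited it, lists a value for every annotated transcript under a header that names no unit. The deposited values were taken as FPKM, since they are not whole numbers and their totals differ between libraries (599081 to 890541); coverage per base is not excluded by that. The submitters' processing notes name HISAT2, StringTie and GRCh38.p10. Not given in the sources used here are their versions, parameters and annotation. Blank gene names, 0 to 88000 rows a library, were filled by transcript ID from the other libraries. Biotypes, lengths and coordinates came from GENCODE 29 (GRCh38), which holds 99.85% of the transcripts.

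FPKM were summed per gene and divided by median-of-ratios factors (0.601 to 1.188). Genes averaging 1 FPKM or more were tested on log2(scaled FPKM + 1) with limma 3.58.1 (trend) in R 4.3.3, with Benjamini-Hochberg adjustment; this scale understates changes of low genes. Shares were tested on the arcsine square root, for genes averaging 5 FPKM or more with no library at 0, at mean shares of 5% to 95% for a transcript and 1% to 99% for a class. The fits were run on simulated data with large changes and independent noise. Recovery was required only at noise well below the spread of these libraries, so the check does not give the power of the tests here. Tables were joined with pandas 2.3.3 in Python 3.11.15. Single values were compared by exact permutation tests of 3 against 3 libraries.

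Read counts were not analysed here. In single-transcript genes of 200 to 800 nt, values of FPKM times length in kb between 0.03 and 0.3 were taken, and their percentile 5 gave a step of 0.0560 to 0.0767. If that step, which the chosen window can shift, is 1 fragment, the libraries held 13000000 to 17800000 fragments, and the SR genes rested on 347 (SRSF6) to 6156 (SRSF2) fragments each.

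Same-numbered libraries are not said to share a culture or day. Their deviations from the group means correlated at 0.721, 0.576 and 0.312, above the limit of 0.1 set for pairing by number. Unlike numbers 2 and 3 reached 0.330 and 0.424, so the data set apart only the pair numbered 1. Deviations within a group sum to 0, so a shared deviation of number 1 tends to make numbers 2 and 3 correlate as well. Named are all members, their transcripts with a mean share of at least 10% in a group, the gene of smallest p in each pathway list (the rule allowed up to 3) and the 5 most similar genes. SRSF3-203, SRSF5-211, the marker genes and the small RNAs were named after their values were seen. The members and lists were chosen with earlier results of these data known. Alternatives were other scalings, pseudocounts and filters, the replicate block, untransformed shares and libraries left out.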

Additional observations from a re-analysis of the deposited data

How the results depend on the processing

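The counts of SR genes, SR transcripts, decay shares, retained intron shares and genes of the 5 lists past the threshold were 0 under every alternative run, including each library left out, both libraries numbered 1 left out, and the replicate block (paired by number). The alternatives for the 5 lists were added after the data were seen. The block called 6 genes over all tested, none of them an SR gene, against 2 without it; with no scaling it called 75 higher and 117 lower. Without both libraries numbered 1, 9 genes were higher and 1 lower, again with 0 SR genes. The median log2 fold change of SR genes, -0.06, was -0.45 with no library scaling, with or without the block, and ran from -0.27 to 0.18 over single libraries left out. Signs of single SR genes were not stable, the cause of which was not tested. With no scaling, also with the block, SRSF1 was at -0.36, SRSF2 at -0.29 and SRSF7 and SRSF9 at -0.32. The median of all genes was then -0.35. With equal totals they were at -0.10, -0.03, -0.06 and -0.05, and the median of all genes at -0.12. Without both libraries numbered 1, SRSF1 was at -0.11, SRSF3 at 0.06, SRSF4 at 0.05, SRSF6 at 0.17 and SRSF10 at 0.02. With each library left out in turn, log2 fold changes ran from -0.54 to 0.47 for SRSF1, -0.36 to 0.65 for SRSF2, -0.36 to 0.16 for SRSF3, -0.15 to 0.15 for SRSF4, -0.17 to 0.03 for SRSF5, -0.45 to 0.38 for SRSF6, -0.30 to 0.31 for SRSF7, -0.06 to 0.24 for SRSF9, -0.27 to 0.20 for SRSF10 and -0.49 to -0.04 for SRSF11. Decay share differences ran from -4.53 to 3.34 points for SRSF2, -2.83 to 0.758 for SRSF3, -6.87 to -1.88 for SRSF4, 2.06 to 5.43 for SRSF5, -17.5 to -3.69 for SRSF6, -7.95 to -1.09 for SRSF7, -0.760 to 0.501 for SRSF10 and -3.29 to -1.34 for SRSF11.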
